A study of Mus musculus with 81 samples.

Results

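SEA/GnJ is an inbred laboratory mouse strain, and its bone marrow neutrophils were set against those of 34 other classical inbred groups. The 2 arrays titled SEA were taken as SEA/GnJ, and the comparison groups were all other titles except the 5 wild-derived ones (WSB/EiJ, PWD/PHJ, CAST/EiJ, MSM/Ms and JF1/Ms), which left 69 arrays; the series holds 81 arrays in all. Cells carrying both CD11b and Ly6G were sorted from bone marrow of male mice aged 6 weeks, RNA from more than one mouse was pooled for an array, and no mouse had been treated, per the labels and the series design. The 34 groups were P/J, titled Balb, titled BPL, titled BTBR, titled C57BR, titled DBA2, 129S1/SvImJ, A/J, AKR/J, C3H/HeJ, C57BL/10J, C57BL/6J, C57BLKS/J(662), C57L/J (668), CBA/CaJ, CBA/J, CE/J, DDY/JclSidSeyFrkJ, FVB/NJ, KK.Cg-Ay/J, LGJ, LP/J(676), MA/MyJ, MRL/MpJ, NOD/ShiLtJ, NON/ShiLtJ, NOR/LtJ, NZB/BINJ, NZW/LacJ, PL/J, RIIIS/J, SJL/J, SM/J and SWR/J. There were 5 arrays of C57BL/6J, 1 each of SWR/J and FVB/NJ, and 2 of every other group. The series design calls the arrays of a strain biological replicates, and p-values of the array-level test measure only the spread between them.

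Strain genealogies describe SEA mice as descending from a cross of BALB/c and P mice, and the strain carries the short-ear and dilute mutations, which lie in Bmp5 and Myo5a. Neutrophils are short-lived phagocytes that kill microbes with granule proteins and an oxidative burst, and they leave the cell cycle as they mature in the marrow. An inbred strain is homozygous throughout, so a strain made from a pair of parents can carry, at each locus, the allele of one parent or of the other. The background label names another strain than the title in 5 groups, and 2 of these bear on the BALB/c parent. The group titled Balb has the background label BTBR T+ tf/J, and the group titled BPL has the background label BALB/cByJ, so P/J, titled Balb and titled BPL are all shown beside SEA/GnJ. Which of these labels is right was not tested.

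All levels are log2 intensity, and differences are SEA/GnJ minus the other group. The neutrophil markers fixed for the check of the label were present: 16 of 18 were measured and their mean was 12.75 and 12.72 on the SEA/GnJ arrays, against 12.57 to 12.78 over the 34 groups. Marker lists of other cell types had far lower means, but some held bright members. The brightest in SEA/GnJ were Hdc (basophils and mast cells) at 11.63, Csf1r (monocytes and macrophages) at 10.29 and Rnase2a (eosinophils) at 10.18. Cd3d (T and NK cells) read 9.82 and Itgb3 (megakaryocytes and platelets) 9.27. In the erythroid and B cell lists the brightest stood at 7.08 and 7.1. The means of the marker lists in SEA/GnJ were 6.22 for erythroid cells, 6.17 for B cells, 5.98 for T and NK cells, 6.77 for monocytes and macrophages, 6.81 for eosinophils, 6.19 for basophils and mast cells and 6.94 for megakaryocytes and platelets. The 2 SEA/GnJ arrays correlated at 0.996 with each other over all 24922 probe sets, within the 0.976 to 0.997 seen between arrays of 1 group. The number of arrays limits the precision, and in sorted bulk RNA fewer cells of a kind and less RNA per cell cannot be told apart. The probes follow the C57BL/6J reference, so a variant under a probe and a lower transcript level cannot be told apart either.

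The question of how SEA/GnJ differs from classical strains in general was tested with the strain as the replicate, using limma on 1 mean per group. That test called 6 probe sets at a Benjamini-Hochberg adjusted p under 0.05, which is 0.0241% of those tested, and 428 had an unadjusted p under 0.05. The only called probe set with 1 gene symbol was Samd9l, an interferon-inducible gene that restricts virus growth and restrains blood cell growth. Samd9l read 3.61 and 4.16 on the SEA/GnJ arrays, against a lowest classical mean of 4.20, a median of 11.15 and a highest of 11.81. P/J held the lowest classical mean, and the next lowest, PL/J, stood at 10.77, so SEA/GnJ and P/J were the only classical strains with a low reading. The difference from the 34 groups was -7.07 with a strain-level SE of 1.18 (limma, adjusted p = 0.0029). The difference from P/J alone was -0.31 (limma, adjusted p = 0.87). One wild-derived strain, JF1/Ms, also read low at 4.55, and with the wild-derived groups added to the comparison the strain-level call was lost (limma, adjusted p = 0.13).

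The other 5 called probe sets were all higher in SEA/GnJ, and the platform table gives each of them 3 genes, so they are listed by identifier. Probe set 10413238 read 11.13 and 10.93 on the SEA/GnJ arrays, against 6.14 to 6.62 over the 34 classical means (difference 4.67, limma adjusted p = 2.6e-25). Probe set 10413250 read 10.45 and 10.34 on the SEA/GnJ arrays, against 5.90 to 6.37 in the classical groups. Both were therefore far outside a narrow range that no other classical strain left. Probe sets 10418185, 10418198 and 10418210 averaged 10.74, 10.62 and 10.52 in SEA/GnJ, against highest classical means of 8.40, 8.43 and 8.32. Wild-derived means reached 9.64, 9.62 and 9.49 at these 3. With the wild-derived groups added the strain-level test called 4 probe sets, all higher. The 3 shared their lowest and highest classical groups, SM/J and MRL/MpJ. Probe sets 10413238 and 10413250 shared theirs, RIIIS/J and titled C57BR, so the 5 may not be separate signals. Neither P/J, at 6.51 for 10413238 and 7.49 for 10418185, nor titled Balb, at 6.22 and 7.94, read near the SEA/GnJ level, and titled BPL did not either, at 6.44 and 7.54.

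The spread between classical strains is wide, so the same difference was also tested against the spread between arrays of a strain, in a limma fit of 1 mean per group over all 81 arrays. This array-level fit asks whether SEA/GnJ differs from the average of these 34 groups, not whether it stands apart from strains in general. It called 1219 probe sets (4.89%), 483 higher (1.94%) and 736 lower (2.95%) in SEA/GnJ, and 170 of them differed at least 2-fold (0.682%), 67 higher and 103 lower. With SEA/GnJ replicate 1 left out it called 446 probe sets, and with replicate 2 left out 496. Both SEA/GnJ arrays lay above all 34 classical means at 103 probe sets (0.413%) and below all of them at 142 (0.57%). In what follows, "rose" and "fell" refer to array-level calls, and apart from Samd9l none of the named genes passed the strain-level test. Counts of calls in a gene list are to be set beside the 1.94% higher and 2.95% lower over all probe sets.

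**Figure D1:**
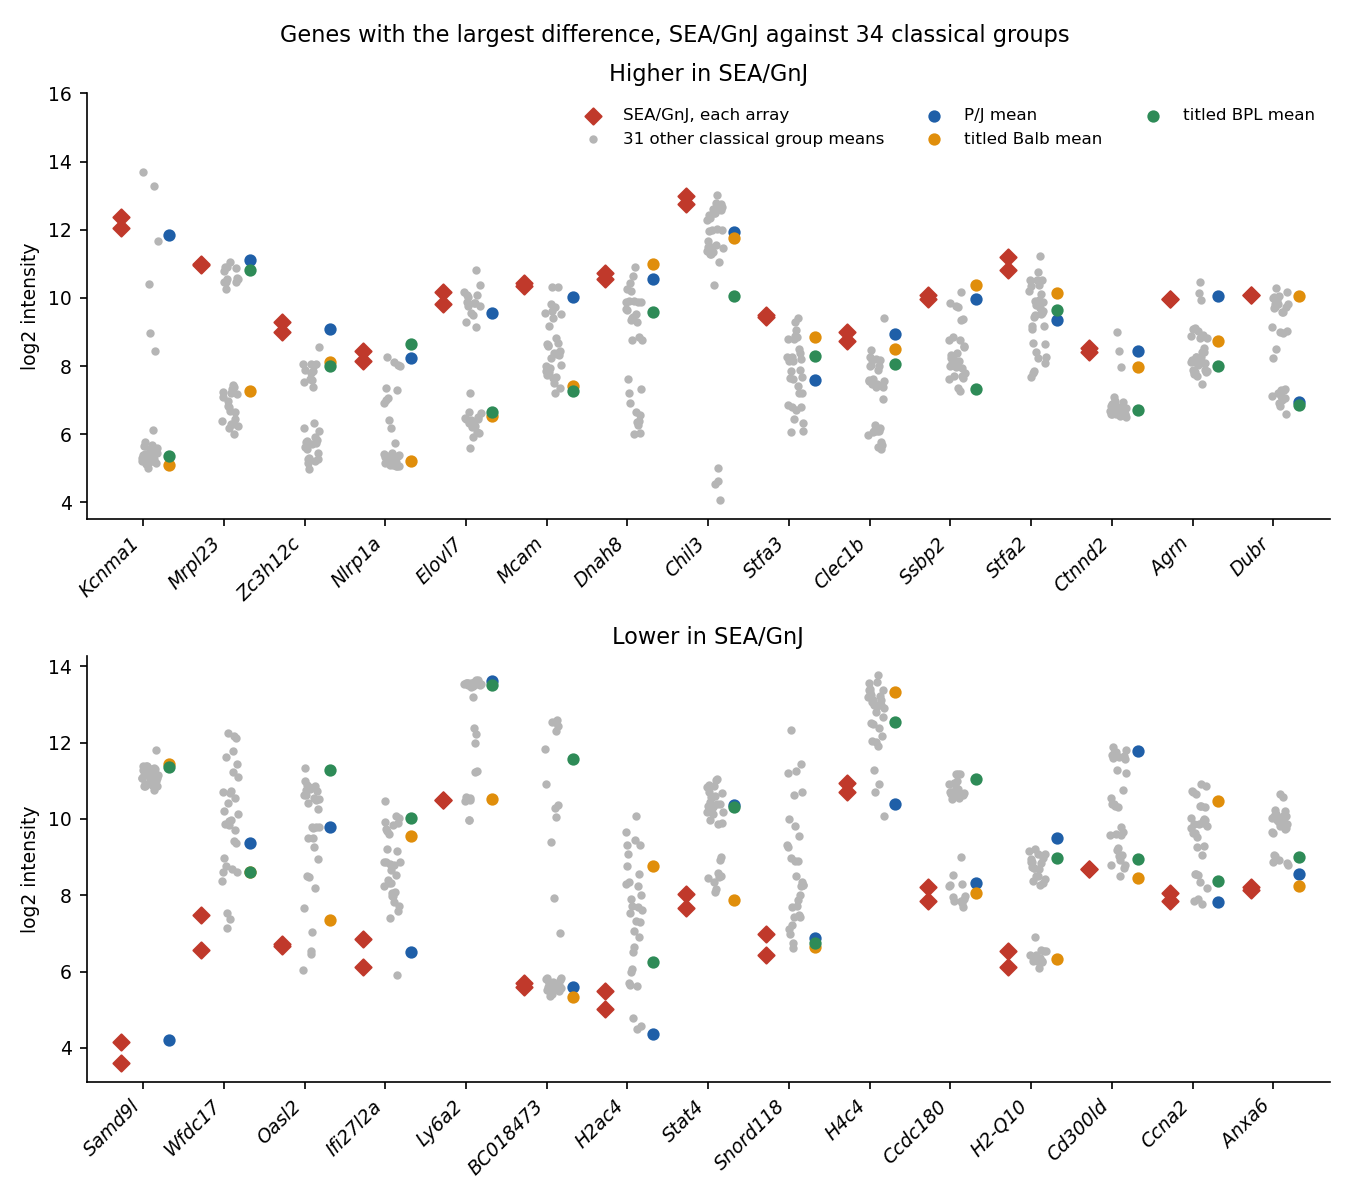
Log2 intensity of the 15 genes with the largest higher and the 15 with the largest lower array-level difference in SEA/GnJ; red diamonds are the 2 SEA/GnJ arrays, coloured circles the P/J, titled Balb and titled BPL means and grey points the other 31 classical group means. For Kcnma1 and Samd9l SEA/GnJ sits with P/J at 12.23 and 3.89, and for Stat4 and Dubr with titled Balb at 7.84 and 10.09.

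The largest rises were in genes with a wide range over the classical groups. Kcnma1, the pore-forming subunit of a large-conductance calcium-activated potassium channel, read 12.06 and 12.39 on the SEA/GnJ arrays, against a classical lowest of 5.00, median of 5.41 and highest of 13.70. Only AKR/J and PL/J exceeded SEA/GnJ, and P/J stood at 11.84. The difference was 5.64 with an SE of 0.16 (limma, adjusted p = 3.6e-33), while a second, dim probe set of Kcnma1 differed by -0.05. Mrpl23, a subunit of the mitochondrial ribosome, read 10.97 and 10.99 in SEA/GnJ, against a classical lowest of 6.00, median of 7.29 and highest of 11.12. The highest was P/J, and its second probe set moved alike, by 2.38. Elovl7, a fatty acid elongase, read 9.81 and 10.16 in SEA/GnJ, against 9.57 in P/J, 6.54 in titled Balb and a classical median of 6.92.

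Zc3h12c and Mcam averaged higher in SEA/GnJ than in all 34 classical groups. Zc3h12c, of the regnase family of RNA-degrading zinc finger proteins, read 9.0 and 9.28 in SEA/GnJ, against a highest classical mean of 9.08 in P/J and a classical median of 6.15, and its second probe set differed by 2.40. The SEA/GnJ array at 9.0 lay below the P/J mean, so the 2 strains overlap. Mcam, the adhesion molecule CD146, read 10.45 and 10.36 in SEA/GnJ, against 10.33 in PL/J, the highest classical group, 10.03 in P/J and 7.42 in titled Balb. Genes on either side of Kcnma1, Mrpl23 and Zc3h12c did not share these changes. Of the 3 nearest measured genes on each side, 0 of 18 were called in the array-level limma fit and 1 had an unadjusted p under 0.05. The widest difference among them was 0.40 for Rdx, next to Zc3h12c (limma, adjusted p = 0.065).

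Other genes rose less. Chil3, the chitinase-like lectin Ym1 of neutrophil granules, averaged 12.88 ± 0.17 in SEA/GnJ (SD, n = 2), against a classical lowest of 4.08 in RIIIS/J, median of 11.85 and highest of 13.01. Its difference of 1.84 from the mean rests partly on the few strains with almost no signal, since the difference from the classical median is far smaller. Stfa3 and Stfa2, stefins that inhibit cysteine proteases, rose by 1.62 and 1.54 and stood at 9.47 and 11.00 in SEA/GnJ, above P/J at 7.59 and 9.35 and titled Balb at 8.85 and 10.14. Stefin genes are near-identical copies of each other, so their probe sets may share signal. Dubr, a long non-coding RNA, read 10.10 and 10.08 in SEA/GnJ, against 10.05 in titled Balb and 6.94 in P/J. Ssbp2, a single-stranded DNA-binding cofactor of LIM-domain transcription complexes, read 10.04 in SEA/GnJ, against 9.98 in P/J and 10.37 in titled Balb, both well above the classical median of 8.20. Dnah8, Clec1b, Ctnnd2 and Agrn rose by 1.85, 1.60, 1.50 and 1.48.

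Apart from Samd9l, the largest falls were in Wfdc17 and Oasl2. Wfdc17, a secreted whey acidic protein-domain antiprotease, read 7.47 and 6.56 in SEA/GnJ, against a classical lowest of 7.13 in CBA/J, median of 9.91 and highest of 12.24 (difference -2.86, SE 0.38, limma adjusted p = 2.1e-07). The 2 SEA/GnJ arrays differed by almost as much as 1 unit, and the lower of them and their mean lay below all 34 groups. P/J at 9.36 and titled Balb at 8.60 were both higher, and the 3 measured genes on each side of Wfdc17, Ccl3 and Ccl4 among them, differed by -0.05 to 0.08, with 0 of 6 called by limma and 0 with an unadjusted p under 0.05. Stat4, which carries interleukin-12 signals, read 7.66 and 8.02 in SEA/GnJ, against 7.87 in titled Balb, the lowest classical group, and 10.38 in P/J, 10.30 in titled BPL and a classical median of 10.30. Its difference was -2.03 with an SE of 0.10 (limma, adjusted p = 1.2e-21). Anxa6, a calcium-dependent membrane-binding protein, read 8.21 and 8.13 in SEA/GnJ, below all 34 groups, against 8.24 in titled Balb and 8.57 in P/J. A second, dimmer probe set of Anxa6 differed by -0.28.

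Several of the other falls place SEA/GnJ near the low end of a wide range over the classical groups. Ly6a2 read 10.50 on both SEA/GnJ arrays, against 10.52 in titled Balb and 13.62 in P/J. Cd300ld, an activating receptor of the CD300 family, read 8.70 in SEA/GnJ, against 8.46 in titled Balb and 11.77 in P/J. BC018473 read 5.65 in SEA/GnJ, against a classical median of 5.80, so its difference of -2.11 from the mean reflects the minority of strains reading up to 12.61. Ccdc180 fell by 1.69, but this gene has many probe sets and only 1 of the others moved by as much as 1, by -1.38. Snord118, the small nucleolar RNA U8, fell by 1.90 and lost its call when either SEA/GnJ replicate was left out. H2-Q10, a class Ib histocompatibility gene, read 6.33 in SEA/GnJ, against 6.32 in titled Balb and 9.50 in P/J.

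Genes of the interferon response did not move together. Of 27 measured interferon-stimulated genes 2 rose and 2 fell, against 1.94% higher and 2.95% lower over all probe sets. Their median difference was 0.02, against -0.007 for all probe sets. The list mean was 8.42 in SEA/GnJ, against 7.79 to 9.33 in the classical groups. Samd9l and Oasl2 fell, while Xaf1 and Oasl1 rose. At an unadjusted p under 0.05, 7 read lower and 2 higher, and 27 of the 34 groups had a higher list mean than SEA/GnJ. Oasl2, an oligoadenylate synthetase-like antiviral protein, read 6.72 and 6.67 in SEA/GnJ, against a classical lowest of 6.03 in 129S1/SvImJ, median of 9.80 and highest of 11.34 (difference -2.85, SE 0.17, limma adjusted p = 1.6e-18). Its immediate neighbour Oasl1, which inhibits translation of Irf7, read 9.39 and 9.21 in SEA/GnJ, against a classical mean of 8.50 (difference 0.80, SE 0.14, limma adjusted p = 0.00011). Oasl1 lost its call without SEA/GnJ replicate 1. The adjacent pair thus differed from the classical average in opposite directions. Oasl2 stood at 9.79 in P/J, near the classical median, and at 7.34 in titled Balb. Oasl1 stood at 8.11 in P/J and 9.57 in titled Balb, against a classical median of 8.49. Titled Balb thus lay on the SEA/GnJ side of both medians. Xaf1, a proapoptotic partner of XIAP, read 9.08 and 9.10 in SEA/GnJ, against a classical mean of 7.88, while Ifi27l2a, of the ISG12 family and outside the list, fell by 2.25 (limma, adjusted p = 6.5e-10) and read 6.85 and 6.13 in SEA/GnJ, against 6.52 in P/J and 9.54 in titled Balb.

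The promoters of these 4 interferon-response genes with an entry are shown because the genes moved in different directions although interferon is known to induce them all. Each runs from 250 bases before to 50 after the start of the gene, in the C57BL/6J-based RefSeq build GRCm38.p6, with matches on either strand to AANNGAAA (TTTCNNTT), the core bound by interferon regulatory factors, in capitals.
Samd9l, chr6:3399522-3399821, minus strand: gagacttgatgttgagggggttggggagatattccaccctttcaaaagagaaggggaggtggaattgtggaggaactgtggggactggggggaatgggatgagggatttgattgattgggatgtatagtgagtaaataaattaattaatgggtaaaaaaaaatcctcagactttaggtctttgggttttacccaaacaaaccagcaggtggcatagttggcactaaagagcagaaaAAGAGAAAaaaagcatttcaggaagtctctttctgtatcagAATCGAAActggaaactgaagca
Oasl2, chr5:114896684-114896983, plus strand: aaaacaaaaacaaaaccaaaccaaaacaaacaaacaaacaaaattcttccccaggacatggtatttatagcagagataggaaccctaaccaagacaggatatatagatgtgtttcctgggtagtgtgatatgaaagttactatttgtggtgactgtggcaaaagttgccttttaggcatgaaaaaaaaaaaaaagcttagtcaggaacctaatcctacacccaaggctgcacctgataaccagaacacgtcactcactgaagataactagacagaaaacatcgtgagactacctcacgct
Oasl1, chr5:114922990-114923289, plus strand: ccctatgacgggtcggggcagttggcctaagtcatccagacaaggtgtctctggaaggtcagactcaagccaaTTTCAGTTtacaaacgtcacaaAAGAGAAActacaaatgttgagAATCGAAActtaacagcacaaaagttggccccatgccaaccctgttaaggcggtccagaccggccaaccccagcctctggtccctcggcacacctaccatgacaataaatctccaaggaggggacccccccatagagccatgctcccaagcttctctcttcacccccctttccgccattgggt
Xaf1, chr11:72301379-72301678, plus strand: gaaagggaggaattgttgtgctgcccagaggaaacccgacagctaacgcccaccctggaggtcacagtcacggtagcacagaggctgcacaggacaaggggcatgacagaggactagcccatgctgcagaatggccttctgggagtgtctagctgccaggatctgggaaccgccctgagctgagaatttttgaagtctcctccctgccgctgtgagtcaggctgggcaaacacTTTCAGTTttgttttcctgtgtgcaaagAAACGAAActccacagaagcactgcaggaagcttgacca
The core occurred 2 times in the Samd9l window, 3 times in Oasl1, 2 times in Xaf1 and 0 times in Oasl2, and 23.9% of all 32851 RefSeq promoter windows held at least 1. These are reference sequences and not those of SEA/GnJ, and a match is a run of letters rather than a site shown to be bound.

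Samd9l is the first measured gene of 1086 on chromosome 6, and the genes after it read differently. At the 10 genes that follow, from Hepacam2 to Col1a2, SEA/GnJ differed by -0.34 to 0.37 from P/J and by -0.28 to 0.27 from titled Balb, with 0 of 10 called by limma and 1 of 10 at an unadjusted p under 0.05 in each contrast. Casd1, which adds acetyl groups to sialic acids, then read 9.79 in SEA/GnJ, against 9.84 in titled Balb, 9.79 in titled BPL and 7.50 in P/J, the lowest classical group. Sgce, which encodes epsilon-sarcoglycan, read 5.35 in SEA/GnJ, against 5.47 in titled Balb and 7.49 in P/J. Ppp1r9a, the cytoskeletal protein neurabin, read 6.26 in SEA/GnJ, against 6.44 in titled Balb and 8.94 in P/J. So within 15 measured genes SEA/GnJ lay within 1 of P/J at the first and more than 2 away from P/J at 3 of the last 4, the exception being Peg10, at 6.42 in SEA/GnJ and 6.96 in P/J. At those 3 genes P/J was the extreme classical group, so SEA/GnJ also read like most other strains there.

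**Figure D2:**
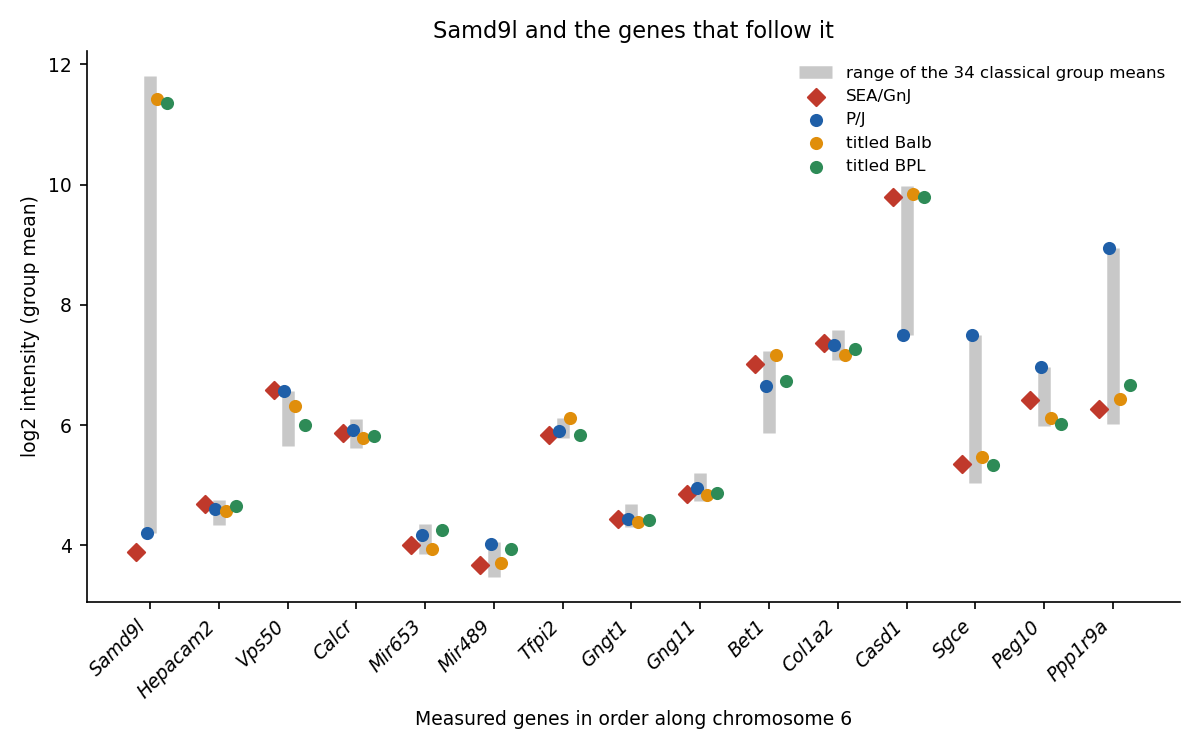
Group mean log2 intensity of the 15 measured genes from Samd9l to Ppp1r9a, in gene order along chromosome 6 and without distances; red diamonds are SEA/GnJ, coloured circles P/J, titled Balb and titled BPL, and grey bars the range of the 34 classical group means. SEA/GnJ lies with P/J at Samd9l (3.89 and 4.20) and with titled Balb at Casd1 (9.79 and 9.84).

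To show which groups SEA/GnJ resembled most, each of the other 39 groups was compared with it in the array-level fit, counting probe sets with an adjusted p under 0.05 and a difference of at least 1. P/J differed at the fewest, 127 probe sets (0.51%), of which 72 were higher and 55 lower in SEA/GnJ. LGJ followed with 197 and titled BPL with 206 (0.827%; 96 higher, 110 lower). Titled Balb ranked 28 of 39 with 418 (1.68%; 57 higher, 361 lower), and the most distant were MSM/Ms with 767 and JF1/Ms with 760, both wild-derived. Among classical groups NON/ShiLtJ was the most distant, with 661. These counts all share the SEA/GnJ arrays, and groups with many arrays have more power, as C57BL/6J does.

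**Figure D3:**
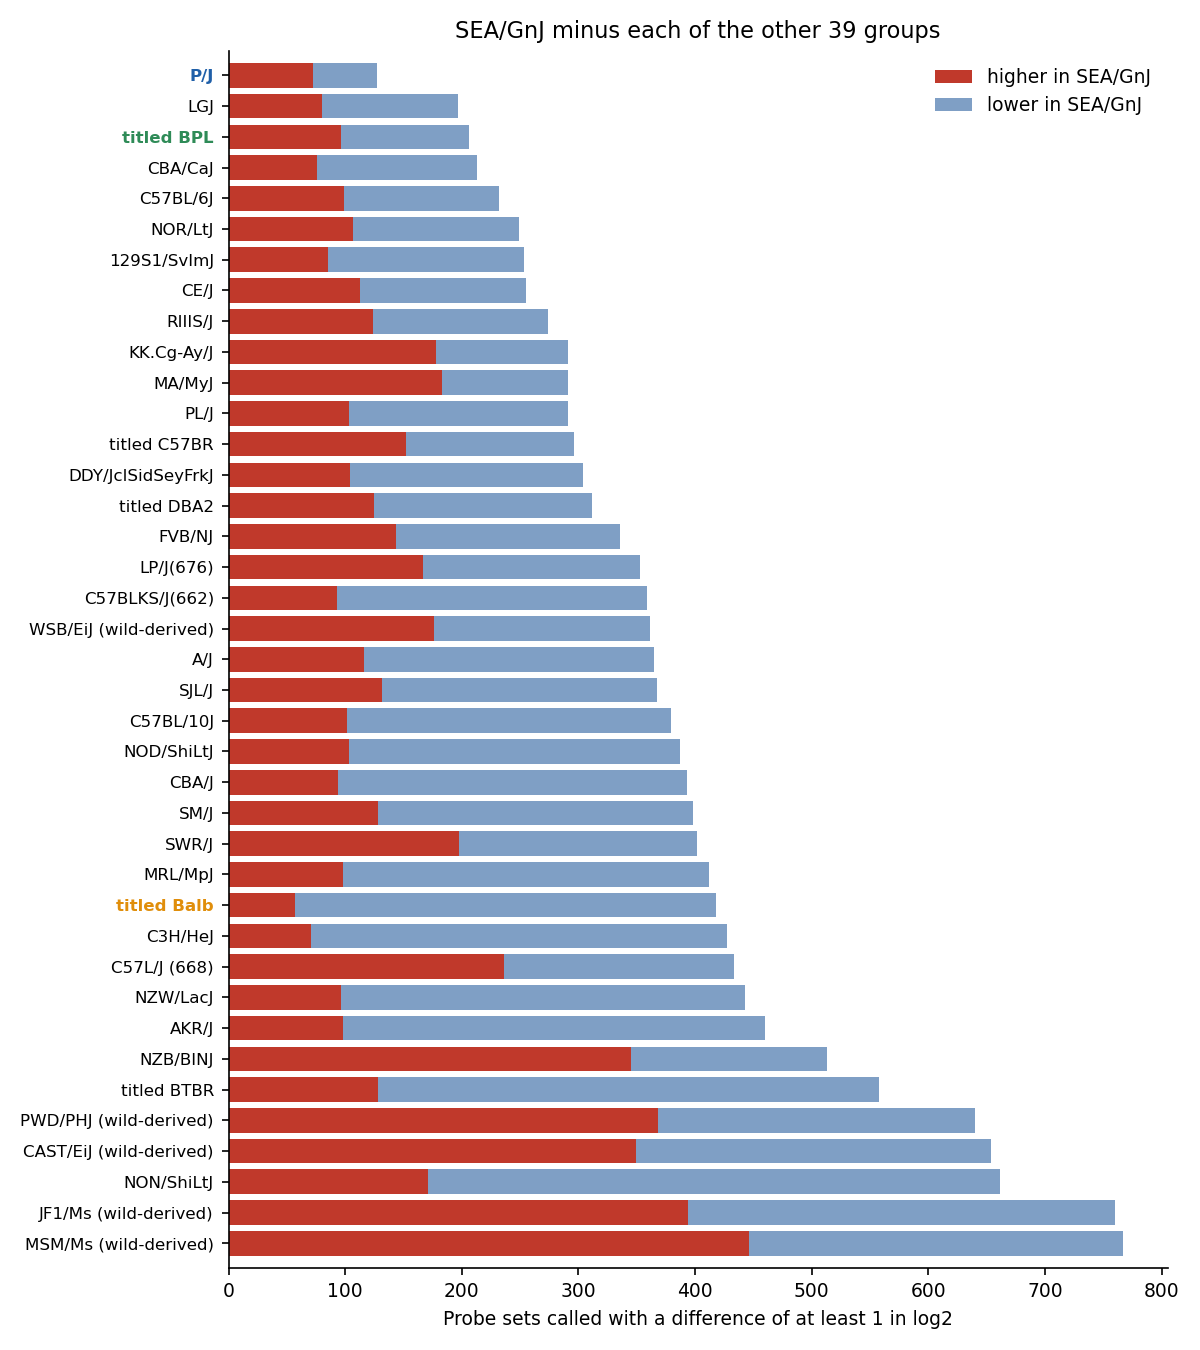
Number of probe sets called with a difference of at least 1 in log2 intensity between SEA/GnJ and each of the other 39 groups, with the higher and lower ones stacked. P/J is at the top with 127 and MSM/Ms at the bottom with 767.

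Against P/J, the genes with the widest difference were Vmn2r96, a vomeronasal receptor gene, at 4.49 on both SEA/GnJ arrays against 11.76 and 11.57 in P/J, and Zfp971, at 8.34 and 8.59 in SEA/GnJ against 3.52 and 3.80 in P/J. H2-Q10, Ly6a2 and Oasl2 followed on the lower side, at -3.17, -3.12 and -3.10, and Dubr, Rnpep and AI987944 on the higher side, at 3.15, 3.15 and 3.13. Rnpep, aminopeptidase B, read 11.11 and 11.15 in SEA/GnJ, against 8.13 and 7.83 in P/J. Against titled Balb the widest were Samd9l, at -7.54, and Kcnma1, at 7.14. Olfml2b, which encodes an extracellular matrix protein, read 6.31 and 6.18 in SEA/GnJ, against 11.23 and 11.25 in titled Balb. Cyth1, an exchange factor for ARF GTPases, read 9.51 and 9.36 in SEA/GnJ, against 5.35 and 5.89 in titled Balb. Against titled BPL the widest were Samd9l at -7.47, Kcnma1 at 6.86 and BC018473 at -5.91. Capg, an actin-capping protein of phagocytes, read 11.30 and 11.44 in SEA/GnJ, against 8.07 and 7.39 in titled BPL. None of the arrays overlapped between the groups at these genes. That follows from choosing genes by the widest called difference and is no separate result.

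SEA/GnJ lay outside the pair of P/J and titled Balb at fewer probe sets than outside any other pair of groups. SEA/GnJ lay more than 1 above both or more than 1 below both at 10 of 24922 probe sets, the fewest of the 741 pairs of the other 39 groups, where the median was 105 and the next pair, A/J with P/J, had 25. P/J with titled BPL had 66 and ranked 58, and KK.Cg-Ay/J with titled Balb had 37 and ranked 5. A low count shows that a pair lies on both sides of SEA/GnJ or near it, not that each group is like it. Titled Balb alone ranked 28 of the 39 groups by number of differences. With only SEA/GnJ replicate 2 the count for P/J and titled Balb was 45 and ranked 4, and with only replicate 1 it was 14 and ranked 1. Of the 170 probe sets with an array-level difference of at least 2-fold, SEA/GnJ was within 1 of P/J at 131, within 1 of titled Balb at 68, of either at 161 and of both at 38. That count of 161 was the highest of the 741 pairs, against a median of 110, 154 for A/J with P/J and 138 for P/J with titled BPL. It rests on the same SEA/GnJ means as the count of 10 above and is no separate result. The 9 left over were Wfdc17, Cstdc6, Rnase2a, the 5 probe sets of several genes called at strain level and 10367744, which has no gene symbol and read 11.68 and 11.26 in SEA/GnJ, against 5.80 to 10.96 in the classical groups. Cstdc6, another stefin-like gene, averaged 7.73 in SEA/GnJ, against 6.16 in P/J and 6.65 in titled Balb, and was not called without SEA/GnJ replicate 1. Rnase2a, an eosinophil-associated ribonuclease, read 10.18 in SEA/GnJ, between 11.52 in P/J and 8.49 in titled Balb.

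P/J and titled Balb themselves differed by at least 2 in log2 at 122 probe sets, and at each SEA/GnJ was set beside the pair. It lay within 1 of P/J at 92, within 1 of titled Balb at 28 and near neither at 2, so 98.4% were assigned; for the other 32 classical groups the number assigned ran from 80 to 119, with a median of 111. At a difference of at least 1 SEA/GnJ had 468 assigned, against 296 to 490 in those groups, and at a difference of at least 3 it had 26, against 17 to 27, so it was not the highest there. Of the 24 probe sets where P/J was the higher of the pair, SEA/GnJ was like P/J at 11 and like titled Balb at 12. Of the 98 where P/J was the lower, it was like P/J at 81 and like titled Balb at 16. Cell-cycle and histone genes weigh on the second count: 13 members of those 2 lists differed between P/J and titled Balb, and SEA/GnJ was like P/J at all 13. More of the 81 belong to cell division without being in either list, among them Nuf2, Hmmr, Kif20a, Tpx2, Nusap1, Prc1 and Ncapg, noticed after the values were seen, so 13 understates their part in the count. E2f8, a cell-cycle transcription factor also outside the lists, went the other way, at 8.71 in SEA/GnJ, 9.46 in titled Balb and 6.26 in P/J. At titled BPL instead of titled Balb, 46 probe sets differed from P/J by at least 2. SEA/GnJ was like P/J at 27, like titled BPL at 18 and near neither at 1, and its 45 assigned equalled the highest of the other 32 groups. With titled BPL at a difference of at least 1 SEA/GnJ had 147 assigned, against 134 to 157 with a median of 145 in those groups. At a difference of at least 3 it had 14, against 6 to 15. Samd9l, Kcnma1, Olfml2b, Elovl7, Mcam, Nlrp1a, Mrpl23 and Cyth1 were among the genes where SEA/GnJ read like P/J. Stat4, Rnpep, Cd300ld, Ly6a2, Dubr, Vmn2r96, H2-Q10, Zfp971, Oasl2, Casd1, Sgce, Ppp1r9a and Klhl42 were among those where it read like titled Balb. At some genes of both kinds the other group of the pair was the unusual one, and SEA/GnJ also read like classical strains in general. Rnpep averaged 11.13 in SEA/GnJ, against a classical mean of 10.51 and 7.98 in P/J. Cyth1 averaged 9.44 in SEA/GnJ, against a classical mean of 9.48 and 5.62 in titled Balb. Casd1, Sgce and Ppp1r9a were like Rnpep in this.

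**Figure D4:**
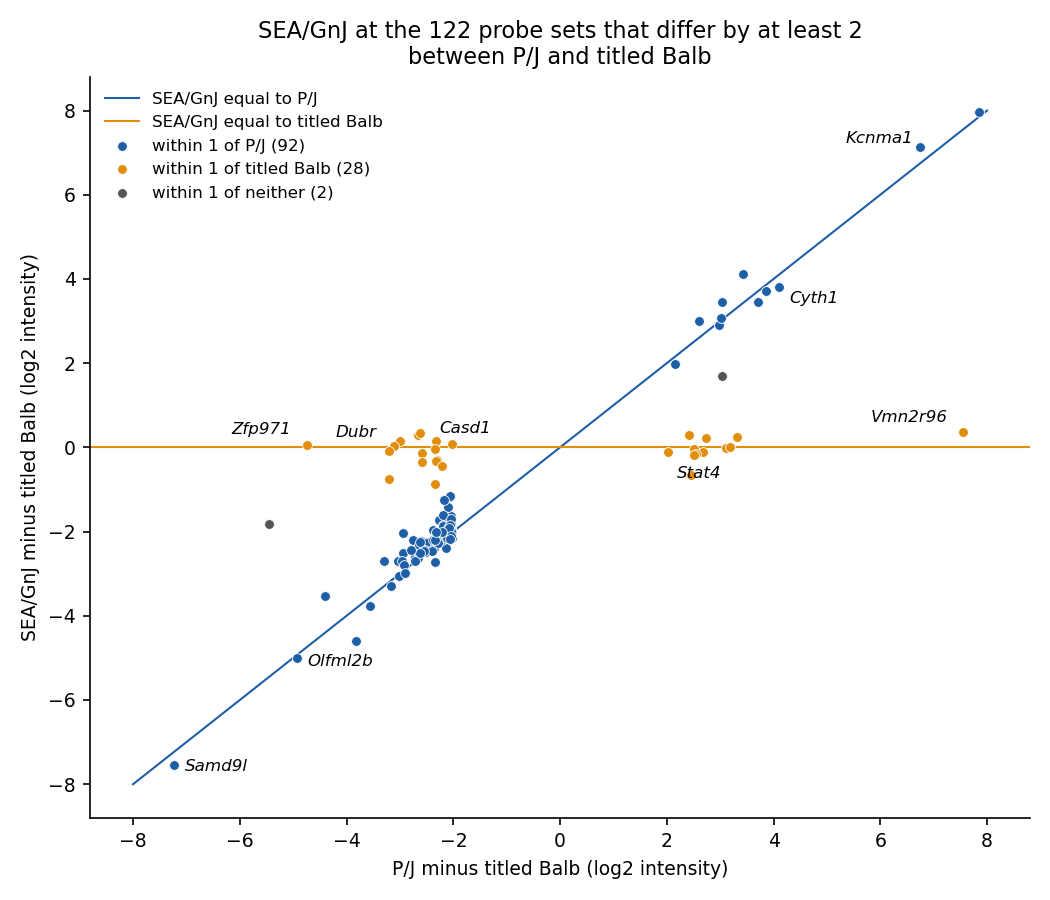
Each point is 1 of the 122 probe sets whose means differ by at least 2 between P/J and titled Balb; the horizontal axis is P/J minus titled Balb and the vertical axis SEA/GnJ minus titled Balb, both in log2 intensity. Points on the blue diagonal have SEA/GnJ at the P/J level (92 within 1) and points on the orange horizontal line have it at the titled Balb level (28 within 1), and 2 points lie near neither.

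Genes of cell division were low in SEA/GnJ. Of 20 measured cell-cycle genes 17 fell, against 2.95% lower over all probe sets, and 9 of the 17 fell by at least 2-fold. The other 3 read lower at an unadjusted p under 0.05, and the median difference of the list was -0.82. The list mean was 7.12 and 7.25 on the SEA/GnJ arrays, against a lowest classical mean of 6.82 in NOR/LtJ, a median of 8.19 and a highest of 9.42 in NON/ShiLtJ. SEA/GnJ was thus in the low part of the classical range rather than outside it, with 30 groups above it, near P/J at 7.02 and far below titled Balb at 9.01. Mki67, the proliferation marker Ki-67, read 8.36 and 8.34 in SEA/GnJ, against a classical mean of 9.59 (difference -1.24, SE 0.24, limma adjusted p = 0.00035). Ccna2, cyclin A2, fell by 1.53, the spindle checkpoint kinase Bub1 by 1.49, the topoisomerase Top2a by 1.41, the spindle motor Kif11 by 1.30 and the mitotic kinases Cdk1 and Plk1 by 1.23 and 1.16. With SEA/GnJ replicate 1 left out 7 of the 20 were called, and with replicate 2 left out 14, all lower, and Top2a, Cdk1 and Kif11 were not called without replicate 1.

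Replication-dependent histone genes, which are transcribed in S phase, followed. Of 11 measured 7 fell, against 2.95% lower over all probe sets, with a median difference of -0.56. H4c4 read 10.72 and 10.95 in SEA/GnJ, against 10.39 in P/J, 13.33 in titled Balb and a classical mean of 12.60, and H2ac4 read 5.48 and 5.01 in SEA/GnJ, against 4.36 in P/J, 8.76 in titled Balb and a classical mean of 7.34. H1f5 and H2bc8 fell by 0.95 and 0.69. With SEA/GnJ replicate 1 left out 4 of the 11 were called and with replicate 2 left out 2, and H2ac4 was not called without replicate 2, nor H1f5 with either left out. Early granule genes, a measure of immature cells, moved less, but they were dim. Their list mean was 6.74 in SEA/GnJ, against 6.59 to 7.25 in the classical groups, so a fall could be missed. Of 9 azurophil granule genes 2 fell and 1 rose, against 2.95% lower and 1.94% higher over all probe sets. At an unadjusted p under 0.05, 4 read lower and 1 higher. Ms4a3, an early granulocyte gene, differed by -0.79, Gusb by -0.42 and Ctsc, the activator of granule serine proteases, by 0.75. Ms4a3 and Ctsc lost their calls with either SEA/GnJ replicate left out, and Gusb without replicate 2. Of 7 gelatinase granule genes and 5 NADPH oxidase genes, which mark later stages, limma called 0, with 2 and 1 at an unadjusted p under 0.05, and their median differences were 0.09 and 0.03.

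**Figure D5:**
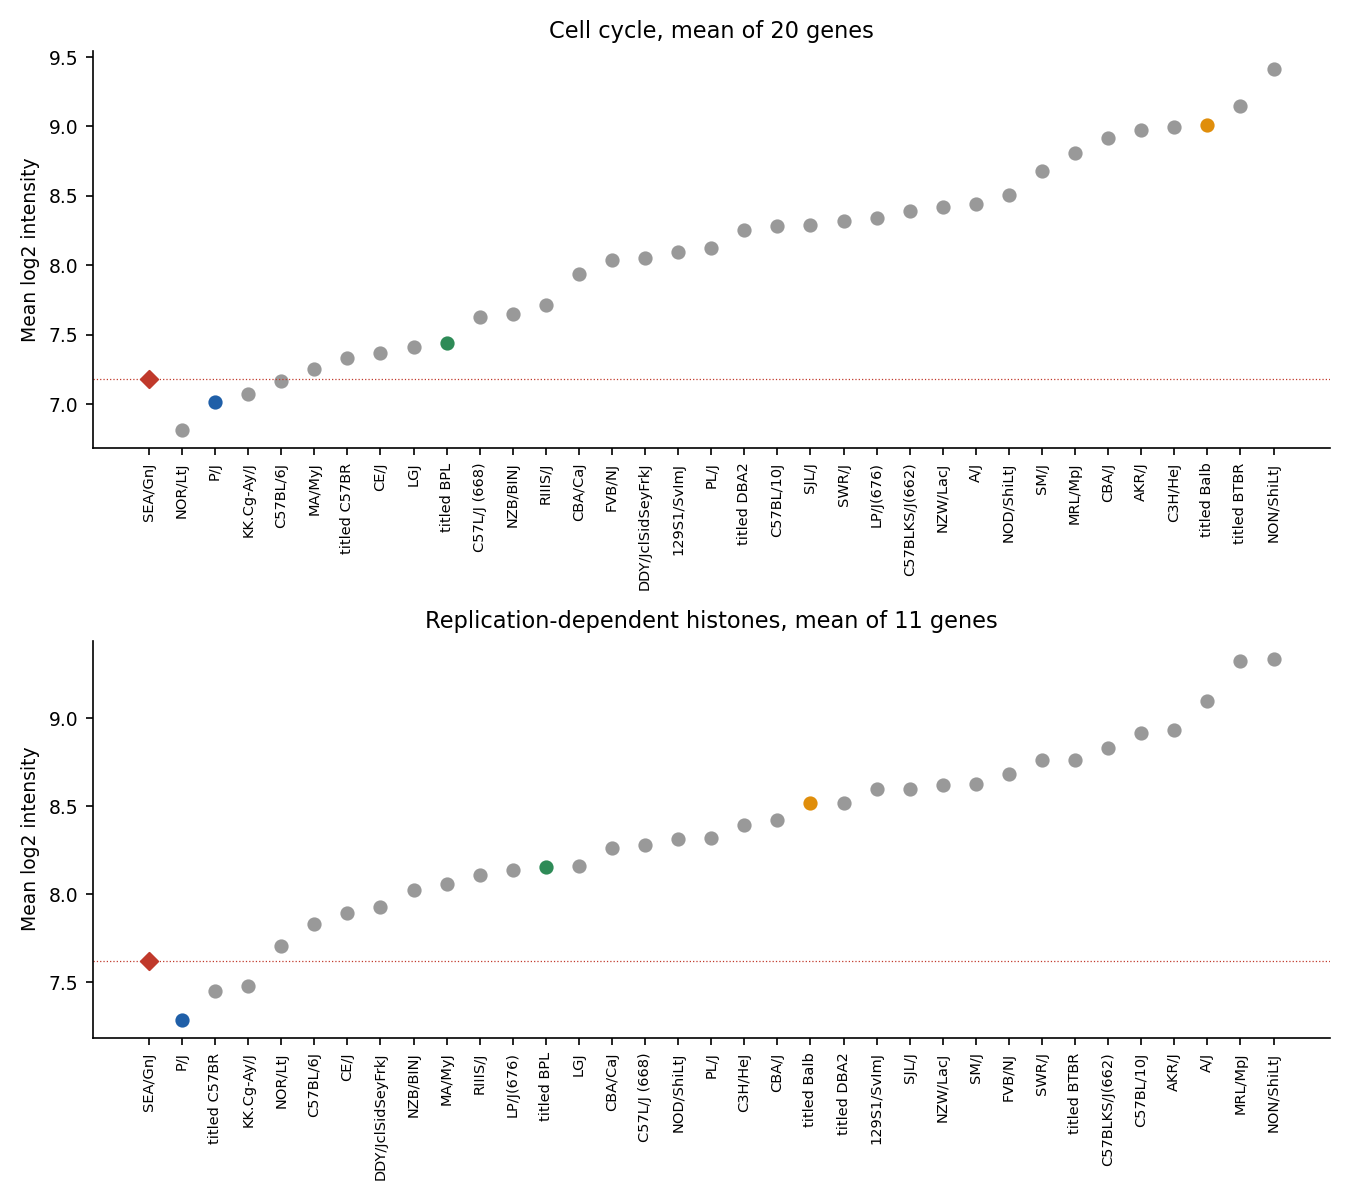
Mean log2 intensity over 20 measured cell-cycle genes and 11 measured replication-dependent histone genes, 1 point per group; SEA/GnJ is the red diamond on the left with its level dotted across, and the 34 classical groups follow from low to high, with P/J in blue, titled BPL in green and titled Balb in orange. SEA/GnJ stands at 7.18 for cell-cycle genes, with P/J at 7.02 and titled Balb at 9.01.

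Among inflammasome genes Naip5, Naip6 and Nlrp1a rose. Naip5, which binds flagellin for the Nlrc4 inflammasome, read 9.17 and 9.36 in SEA/GnJ, against a classical lowest of 6.82 and highest of 9.18, the highest being P/J, and rose by 1.42 (SE 0.12, limma adjusted p = 2.1e-13). Naip6, another flagellin receptor, read 8.41 and 8.64 in SEA/GnJ, against 8.87 in P/J and 6.97 in titled Balb. Nlrp1a, an inflammasome sensor, read 8.43 and 8.15 in SEA/GnJ, against 8.23 in P/J, 8.64 in titled BPL, 5.22 in titled Balb and a classical median of 5.40. Nlrp1a rose by 2.16 and Naip6 by 1.28, while Naip2 differed by 0.24 (limma, adjusted p = 0.3). Naip genes are close copies of each other, so their probe sets may share signal. In the same list of 17 measured genes 3 rose and 3 fell, against 1.94% higher and 2.95% lower over all probe sets. The inflammasome adaptor Pycard fell by 0.81, and the pyrin gene Mefv by 0.59 and the DNA sensor Aim2 by 0.47, of which Mefv was not called without SEA/GnJ replicate 2 and Aim2 with either left out. Mefv averaged below all 34 classical groups.

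A few genes of cytokine signalling fell. Il10ra, the ligand-binding chain of the interleukin-10 receptor, read 6.83 and 6.64 in SEA/GnJ, against a classical lowest of 6.92, with P/J at 6.98 and titled Balb at 7.01, and a highest of 10.15, and fell by 1.29 (SE 0.16, limma adjusted p = 3.9e-08). Hmox1, haem oxygenase 1, an enzyme that interleukin-10 induces, read 8.37 and 8.20 in SEA/GnJ, against a classical lowest of 8.47, and fell by 1.08. Kit, the stem cell factor receptor, read 7.03 and 7.37 in SEA/GnJ, against a classical lowest of 7.34 in titled Balb and 8.56 in P/J, and fell by 1.19. Fcgr2b, the inhibitory Fc gamma receptor, read 9.68 and 9.72 in SEA/GnJ, against 9.71 to 10.85 in the classical groups, and fell by 0.66. Il4ra, the interleukin-4 receptor chain, fell by 0.60 and lost its call without SEA/GnJ replicate 2. Of 13 measured genes in the interleukin-10 list 3 fell, and of 25 cytokine and growth factor receptors 5 fell, against 2.95% lower over all probe sets, and both lists hold Il10ra and Il4ra. The second count was 3 without SEA/GnJ replicate 1 and 2 without replicate 2, and 11 of the 25 receptors differed upward. The median differences of these lists were -0.12 and -0.05. Monocyte and macrophage markers moved with these genes. Of 14 measured 4 fell (Adgre1 by 0.95, Cd68 by 0.95, C1qb by 0.78 and Mertk by 0.49), against 2.95% lower over all probe sets. The summed linear level was 2802 in SEA/GnJ, against 2511 to 4447 in the classical groups. The list mean of 6.77 was below the lowest classical one of 6.81. Of the 4 genes only Adgre1 kept its call without each of the SEA/GnJ replicates in turn. Cd68 lost it without replicate 2 and C1qb and Mertk with either left out. Of 6 megakaryocyte and platelet genes, Gp9 and Itgb3 fell by 0.67 and 0.32, with a summed level of 1141 in SEA/GnJ against 1030 to 2294 and a list mean of 6.94 in SEA/GnJ against a lowest classical one of 6.99, Gp9 losing its call without replicate 1 and Itgb3 with either left out. The part of these cells in the lower receptor levels was not tested.

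Other lists held small counts of calls, though in those with any call the share exceeded the 4.89% called over all probe sets. Among 17 pattern recognition genes Tlr6 rose by 0.42, a call lost with either SEA/GnJ replicate left out, and Nod1 fell by 0.52, a call lost without replicate 1. Among 14 specific granule genes Chil3 and Olfm4 rose, the second by 0.56, and Orm1, an acute-phase glycoprotein, and Chil1, a chitinase-like protein, fell by 0.63 and 0.21. Both falls were lost with either SEA/GnJ replicate left out and with a common array median. Of 21 glutathione and redox genes 2 rose and 3 fell, against 1.94% higher and 2.95% lower over all probe sets. Prdx1, a peroxiredoxin, was among the falls, at 6.58 and 6.44 in SEA/GnJ against a classical mean of 7.73. Gsr, glutathione reductase, rose by 0.53, and Nnt, the mitochondrial NADPH-making transhydrogenase, by 0.52, Nnt losing its call without SEA/GnJ replicate 2. Of 11 class I histocompatibility genes H2-T24 rose by 0.83 and H2-Q10 fell, against 1.94% higher and 2.95% lower over all probe sets. H2-T24 read 10.65 in SEA/GnJ, against a classical median of 10.51 and a lowest of 7.56 in FVB/NJ. Its difference from the mean thus rests largely on strains with a low reading. Limma called 0 of 9 class II genes, 13 adhesion genes, 12 chemoattractant receptors and 9 guanylate-binding and immunity-related GTPases, with 1, 1, 2 and 2 at an unadjusted p under 0.05. Of 8 Schlafen genes 2 rose, against 1.94% higher over all probe sets, and 1 was called with either SEA/GnJ replicate left out, with Slfn8 at 8.46 and 8.25 in SEA/GnJ against a classical mean of 7.13. Cd3d, a T-cell receptor chain that is read at a high level in these sorted cells in many strains, read 9.75 and 9.88 in SEA/GnJ, against 6.20 to 10.23 in the classical groups, while the other T and NK cell gene called, Nkg7, fell by 0.49 and was not called with either replicate left out.

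The loci that give SEA/GnJ its appearance left 1 call. Myo5a, the myosin V heavy chain mutated in dilute mice, read 11.16 and 11.27 in SEA/GnJ, against a classical lowest of 9.86, a mean of 10.38 and a highest of 11.30, and rose by 0.83 (SE 0.12, limma adjusted p = 2.6e-06). P/J, at 11.25, was equally high, and titled Balb stood at 10.61. Bmp5, the bone growth factor mutated in short-ear mice, read 5.17 and 5.30 in SEA/GnJ, against 5.13 to 5.59 in the classical groups, near the dim end of the array (limma, adjusted p = 0.89). Of the other 18 measured genes of the list, which holds coat-colour genes and neighbours of these loci, limma called 0 and 1 had an unadjusted p under 0.05, with differences from -0.30 to 0.17.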

How the data were processed

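Neutrophil RNA from 81 samples was measured on Affymetrix arrays. The authors deposited intensity values per probe set, made with Affymetrix Power Tools and RMA per the submitters' processing notes, which give no versions. That the intensity scale is linear was read from the deposited values, which ran from 5.3 to 19348 with array medians of 97.2 to 114.8 (105.8 and 102.3 for SEA/GnJ). The genome build behind the probe sets is not given in the sources used here. Values were converted to log2 and not scaled further.

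Samples were grouped by title; in 5 groups of 10 arrays the background label differs. The 40 groups come from titles, and no source used here pairs arrays of different groups. Probe sets were named through the platform table, which gave 1 symbol for 21425, several for 1399 and none for 2098. A gene was represented by its brightest probe set, which left 19752 genes, of which 19674 matched the RefSeq gene table of GRCm38.p6, used for gene order and promoter windows.

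Tests used limma 3.58.1 in R 4.3.3 (lmFit, eBayes, Benjamini-Hochberg over all 24922 probe sets, adjusted p under 0.05). The strain-level fit used 1 mean per classical group, with residual degrees of freedom of 33 and a prior of 2.99, and takes the spread between strains as the error of SEA/GnJ. The array-level fit had residual degrees of freedom of 41 and a prior of 7.93. The 31 gene lists, the members and the tests were chosen with earlier results of these data known, and the counts of a list are descriptions. Genes named are the 15 higher and 15 lower with the largest called difference and a higher mean of at least 7, up to 4 members per list, the short-ear and coat-colour genes (18 of them given as a range), 3 measured neighbours on each side of the leading genes, and up to 8 genes per pairwise contrast. Since the strain-level test called 1 named gene, the same rule was applied to the array-level fit after the values were seen, and a few list members and genes of the parent comparison beyond the rule were also named after their values were seen. The scripts were tested on simulated data. Alternatives covered normalization, the variance prior, a filter on dim probe sets, the replicate number as a block, left-out arrays and groups, and the grouping label.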

Additional observations from a re-analysis of the deposited data

Results flagged for a closer look

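C57BL/6J was the only group with enough arrays to look for a distant one among the 30 named genes. Ifi27l2a was picked out there: 1 of the 5 C57BL/6J arrays read 7.98, against 8.89 to 9.20 on the other 4. Chance alone picks out about 1 in 20 such groups, and 1 of 30 genes was picked out.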

How the results depend on the processing

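The strain-level count of 6 rose to 10 with P/J, titled Balb and titled BPL left out, ran from 9 to 12 with 1 SEA/GnJ replicate left out, and was 1219 in the array-level fit and 1187 with the replicate block; under the other 9 alternatives it stayed between 4 and 8. The array-level count of 1219 ran from 446 to 496 with 1 SEA/GnJ replicate left out. Deviations of same-numbered arrays had no consistent direction across groups (correlations of -0.5 to 0.51 with a median near 0). Some pairs of groups did deviate alike or oppositely, up to the ends of that range. The block moved no other count by over 1.5 times. The count of probe sets outside both P/J and titled Balb, 10, ran from 14 to 45 with 1 SEA/GnJ replicate left out. Where P/J and titled Balb differed by at least 1 instead of 2, SEA/GnJ was like P/J at 61.2% instead of 75.4% and assigned at 78.0% instead of 98.4%, and at a difference of 3 at 60.7% and 92.9%. With titled BPL, 58.7% were like P/J, 73.3% at a difference of 3, and 97.8% were assigned, 73.5% at a difference of 1. With a replicate left out SEA/GnJ rests on 1 array; the cause of the other moves was not tested.

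Of 76 genes followed through the alternatives, 74 lost their array-level call in the strain-level fit and 0 changed direction. Without SEA/GnJ replicate 1, 19 lost it, and without replicate 2 also 19; 5 lost it with a common array median and 1 with a trended and robust prior. Samd9l kept its strain-level call in 11 of 12 alternatives. The comparison with titled Balb ran from 315 to 571 calls with 1 array left out and from 281 with dim probe sets left out. With 2 SEA/GnJ arrays, a small shift could be missed.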

Other observations

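Of 9 measured genes of the Ifi200 family, whose members sense DNA or act in the nucleus, 3 fell in the array-level limma fit (Ifi207, Ifi203 and Aim2), against 2.95% lower over all probe sets, with a median difference of -0.29. Without SEA/GnJ replicate 1 limma called 0, with 3 lower at an unadjusted p under 0.05, and without replicate 2 it called 1. Ifi207 read 5.03 and 5.34 in SEA/GnJ, against 4.79 to 7.93 in the classical groups, and Ifi203 read 3.76 and 3.84 in SEA/GnJ, against 3.65 to 9.38, so SEA/GnJ lay inside both ranges. Of 17 immediate early and stress genes, which respond to handling of cells, Jun alone was called, at 7.24 and 6.65 in SEA/GnJ against a classical mean of 7.75, and it lost its call without SEA/GnJ replicate 2. Of 17 inhibitory and Fc receptors Fcgr2b and Cd300ld were called, both lower. Among 8 eosinophil markers Rnase2a rose by 1.26 and Ear6 fell by 0.55, the second not called with either SEA/GnJ replicate left out. Rnase2a averaged 10.18 in SEA/GnJ, against a classical median of 9.54, and 14 of the 34 groups read higher. The summed linear level of the markers was 1856 in SEA/GnJ, against 791 to 5252 in the classical groups. Of 10 basophil and mast cell markers only Kit was called. Limma called 0 of 4 erythroid and 0 of 10 B cell markers, and 0 of each had an unadjusted p under 0.05. The sort marker Ly6g rose by 0.20 and was not called with either SEA/GnJ replicate left out.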
